A study of Drosophila melanogaster with 2 samples.

Results

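Peaks of the GFP-tagged protein CG32264 that lie at divergent promoters were described here, that is, at places where genes on opposite strands start within a short distance of each other. A peak was a member when its summit in the optimal set lay within 500 bp of annotated transcript starts of at least 2 different protein-coding genes, with at least 1 start on each strand. Of the 2546 peaks of the optimal set, 378 were members (14.8%, exact 95% interval 13.5 to 16.3). A further 747 peaks lay within 500 bp of protein-coding starts on 1 strand alone and are called one-directional promoter peaks here, and 1421 lay elsewhere. Chromatin immunoprecipitation with sequencing (ChIP-seq) was done with an anti-GFP antibody on whole Drosophila melanogaster larvae, males and females pooled, in the wandering stage of the third instar, when larvae leave the food before pupariation. The larvae came from the transgenic strain CG32264-GFP, which stably expresses CG32264 with GFP (labelled eGFP in the experiment's description) at its C terminus. There were 2 biological replicates, numbered 1 and 3, of this 1 group, their age was labelled unknown, and a control library was not analysed here. Whole larvae mix all tissues, so a peak gives no cell type, and the fusion protein stands for CG32264 only as far as the tag leaves its binding as it was.

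In a divergent promoter the start sites of a pair of genes face away from each other across a short stretch of DNA, which is usually free of nucleosomes and can be used by transcription in both directions. Such pairs are common in the compact genome of the fly, where many of them hold housekeeping genes, and insulator proteins such as BEAF-32 and the core promoter factor DREF are known to bind at many of them. CG32264 belongs to the phosphatase and actin regulator family, whose mammalian members bind actin and protein phosphatase 1. With 2 libraries of 1 group no test over samples was possible. Intervals are exact Clopper-Pearson 95% intervals for shares, Newcombe 95% intervals for differences of shares and exact Poisson 95% intervals for densities, and all cover counting error only.

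Sequences of 100 bp either side of the summit are shown for 6 members, the strongest of all and strong examples of kinds that the results below turn on. They are read from RefSeq's Release 6 sequence (dm6), plus strand, 5′ to 3′. Capitals mark the DNA replication-related element (DRE, TATCGATA), the core of the BEAF-32 site (CGATA, which every DRE holds), the core of the site of the factor M1BP (GGTCACAC), the E-box CAGCTG and Ohler motif 7, a core promoter element given by name because its letters are degenerate. Each was searched on both strands, and a match is a description of letters. The strongest member, between the F-box gene Fbw5 and CG9147, covers chr2L:6065985-6066185 and holds the BEAF-32 core alone of these 5.
Fbw5/CG9147: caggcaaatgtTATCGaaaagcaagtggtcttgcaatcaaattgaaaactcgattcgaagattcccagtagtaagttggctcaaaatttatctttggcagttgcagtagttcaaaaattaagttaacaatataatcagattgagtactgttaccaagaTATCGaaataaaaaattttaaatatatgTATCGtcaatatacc
The strongest member with an E-box, between CG3437 and CG3552, covers chr3L:9457716-9457916.
CG3437/CG3552: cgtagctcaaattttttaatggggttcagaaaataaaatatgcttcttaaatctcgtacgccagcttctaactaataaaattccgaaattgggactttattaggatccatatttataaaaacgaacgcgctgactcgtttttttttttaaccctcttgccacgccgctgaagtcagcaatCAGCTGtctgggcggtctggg
The strongest member with a DRE, between Atat, an alpha-tubulin acetyltransferase gene, and Shc, an adaptor of receptor tyrosine kinase signalling, covers chr3L:9426783-9426983. It holds Ohler motif 7 too, as did the stronger member at Pex11ab and CG8320 (signal 398).
Shc/Atat: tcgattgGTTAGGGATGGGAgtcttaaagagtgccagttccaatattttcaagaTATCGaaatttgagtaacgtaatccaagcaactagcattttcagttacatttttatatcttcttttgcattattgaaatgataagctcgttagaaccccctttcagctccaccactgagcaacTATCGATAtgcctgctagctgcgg
The strongest member with a cytoplasmic ribosomal protein gene, between RpL32 and CG7943, covers chr3R:30046142-30046342 and holds 3 BEAF-32 cores.
RpL32/CG7943: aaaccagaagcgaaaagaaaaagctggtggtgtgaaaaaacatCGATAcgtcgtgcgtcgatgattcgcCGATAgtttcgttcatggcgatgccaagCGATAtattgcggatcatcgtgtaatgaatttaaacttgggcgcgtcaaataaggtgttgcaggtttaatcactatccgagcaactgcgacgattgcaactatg
The strongest member with an M1BP core, near Ripalpha, which encodes a nuclear transport receptor of replication protein A, and RpL7, covers chr2L:10200926-10201126.
RpL7/Ripalpha: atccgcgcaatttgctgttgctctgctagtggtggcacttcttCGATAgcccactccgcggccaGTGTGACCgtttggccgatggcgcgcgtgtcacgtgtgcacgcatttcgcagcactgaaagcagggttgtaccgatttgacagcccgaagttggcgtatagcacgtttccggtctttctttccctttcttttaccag
The next strongest member with a DRE, between fws, a subunit of the conserved oligomeric Golgi complex, and Lamtor3, a subunit of the Ragulator complex, covers chr2L:17481078-17481278 and holds an E-box to the right of the DRE.
fws/Lamtor3: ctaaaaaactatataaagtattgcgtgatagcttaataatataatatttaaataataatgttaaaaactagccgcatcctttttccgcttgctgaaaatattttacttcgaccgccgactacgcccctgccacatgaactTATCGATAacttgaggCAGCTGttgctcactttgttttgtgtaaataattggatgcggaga

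The first question was how often a divergent promoter carried a peak. The annotation held 2720 divergent pairs, taken as protein-coding genes on opposite strands with starts at most 1000 bp apart, so that 1 summit can lie within 500 bp of both. These pairs hold 5141 of the 13945 protein-coding genes (36.9%). A peak lay within 500 bp of both genes in 416 pairs (15.3%, 14.0 to 16.7), and 2304 pairs had none. Of all protein-coding genes, 10.4% had a summit within 500 bp of a start. Among genes in a divergent pair the share was 18.1% (932 of 5141, 17.1 to 19.2), against 5.88% (518 of 8804, 5.40 to 6.40) among genes in no pair. The difference was 12.2 percentage points (11.1 to 13.4). A gene with many starts has more chances to count, and among genes with 1 annotated start the shares were 14.5% in a pair and 3.57% in none, a difference of 10.9 points (9.73 to 12.2). Without replicate 1, on as many top peaks of replicate 3, the difference was 7.43 points.

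A gene of a pair can also count through a summit at its partner's start, so the same summits were counted per length of DNA. Within 500 bp of starts on both strands there were 226 summits per Mb (204 to 249.6) over 1.67 Mb. Within 500 bp of starts on 1 strand there were 54.7 per Mb (50.8 to 58.8) over 13.7 Mb, and 12 per Mb elsewhere. The density at divergent promoters was thus 4.13 times that at one-directional promoters. At equal distance from the nearest start the density differed in the same direction close to the start. From 50 to 100 bp upstream it was 639 per Mb at divergent and 149 per Mb at one-directional promoters, 4.30 times as high. From 100 to 150 bp upstream the values were 721 and 155 per Mb, 4.65 times as high. From 150 to 200 bp upstream they were 184 and 148 per Mb, and their intervals overlapped. Beyond 300 bp upstream the density was 20.9 per Mb at divergent promoters, from 1 summit, and 51.3 per Mb at one-directional promoters, again with intervals that overlapped.

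**Figure D1:**
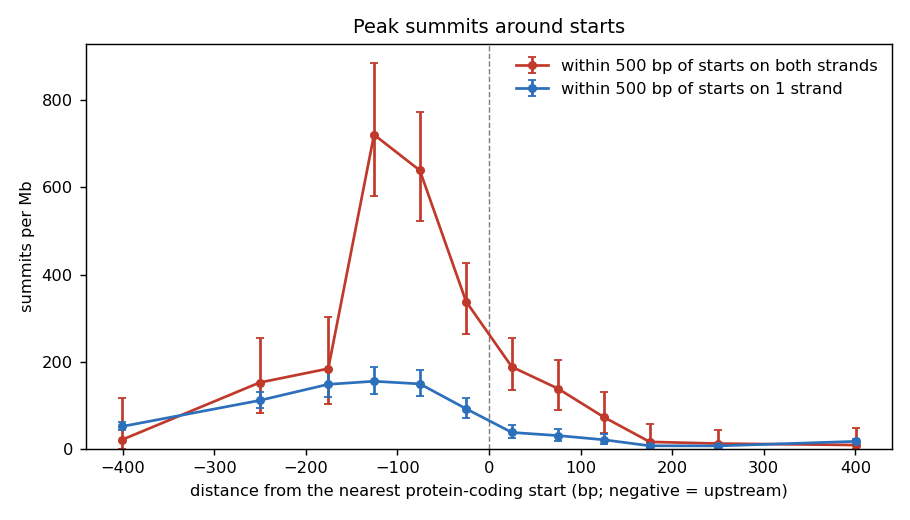
Density of summits of the optimal set (summits per Mb, exact Poisson 95% intervals) against the distance from the nearest protein-coding start in bp, with upstream distances negative, in DNA within 500 bp of starts on both strands (red) and on 1 strand (blue). The red curve reaches 721 per Mb between 100 and 150 bp upstream, where the blue curve is at 155 per Mb.

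The pairs with a peak had closer starts than those without. Distance and geometry were taken from the closest starts of a pair, which were not always the starts at the peak. The median distance between starts was 243 bp (quartiles 110 and 318) in the 416 pairs with a peak and 319.5 bp (168 and 539) in the 2304 without. This difference came with the widest pairs, which have the smallest window in which a summit can count. Among pairs at most 500 bp apart the medians were 237 and 243 bp. Of the head to head pairs, in which the minus-strand start lies left of the plus-strand start, 15.3% (399 of 2616) had a peak, and of the 104 overlapping pairs, in which the genes overlap at their starts, 16.3% (17, interval 9.82 to 24.9). In head to head pairs 0 to 100 bp apart the share was 21.4%, and it was 15.0% above 100 and up to 200 bp, 20.2% above 200 and up to 500 bp and 2.72% above 500 and up to 1000 bp. Per Mb of the window in which a summit counts, those bins held 224, 177, 305 and 92.1 summits, with summit and window counted once for each pair. The narrowest pairs with a peak, each with starts 2 bp apart, were dpa with didum and CG11710 with mal. The genes dpa and didum encode an MCM helicase subunit and a class V myosin. At CG11710 and mal the starts nearest the summit on each strand were 462 bp apart. The widest pair was Lip3 and CG34309 at 726 bp. Overlapping pairs with a peak ran from mAcon1, a mitochondrial aconitase gene, with CG43345 and CG43346 (starts 11 bp apart, signal 88.7) to DnaJ-H and Sirt1, a deacetylase gene (508 bp, signal 67.4), and included Gcn5, a histone acetyltransferase gene, with ver (27 bp, signal 179).

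Summits lay mostly between the starts. Of the 378 members, 290 (76.7%, 72.1 to 80.9) had the summit between the nearest start on each strand. Within pairs, a summit was counted once for each pair it lies near, so the peak at the pre-mod(mdg4) locus enters many times. The intervals treat these counts as independent. The starts used are the closest of each pair. They were not those at the peak at yin and CG2930, where the summit stood at −3514 bp from their midpoint. In head to head pairs over 200 and up to 500 bp apart, 219 of 245 such counts (89.4%, 84.8 to 92.9) lay between the starts. The stretch between the starts makes up 51% of the window on average. In pairs 0 to 100 bp apart, 17 of 91 (18.7%) did so, in 6.14% of the window. The median distance from summit to midpoint was 57.5 bp in the former. In 329 of the 378 members (87.0%) the deposited summit stood within 1 bp of the centre of the peak. The median width of member peaks was 376 bp, which limits how finely position can be read. The summit was nearer to the minus-strand start in 46.6% of members (41.4 to 51.7), so neither strand was nearer beyond counting error. The median distance from the summit to the nearest start was 82.5 bp in members (quartiles 44.2 and 117) and 167 bp in one-directional promoter peaks (90.5 and 284). A start on each side shortens that distance by the rule itself, so it is given as a description.

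**Figure D2:**
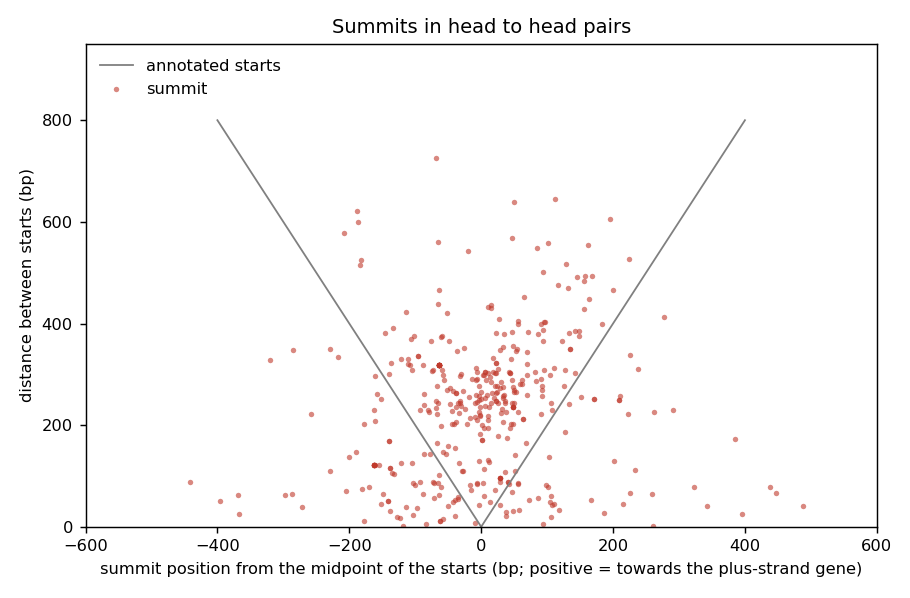
Position of summits (x, bp, positive towards the plus-strand gene) against the distance between the starts (y, bp) in head to head pairs with a peak. Position is taken from the midpoint of the closest annotated starts of the pair. The x axis is cut, so summits far out are not drawn, such as that at yin and CG2930 (−3514 bp). Grey lines are those starts, and most summits of pairs over 200 and up to 500 bp apart lie between them (219 of 245). A summit is counted once for each pair it lies near.

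The signal is the authors' deposited value for each peak, and its scale differs from list to list, so ranks are compared between replicates and signals are not. The signal of members in the optimal set ran from 61.2 to 682 with a median of 88.3 (quartiles 72.6 and 125). The medians of one-directional promoter peaks and of peaks elsewhere were 91.5 and 89.9. Of the members, 23.3% were in the strongest 25% of the optimal set, against 28.4% of one-directional promoter peaks, a difference of −5.10 points whose interval (−10.3 to 0.387) includes 0. The highest signal of a one-directional promoter peak was 956. Divergent promoters thus held peaks at a higher density than one-directional promoters, and the middle of their signals lay close to that of the rest.

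The strongest member lay between Fbw5 and CG9147 (2L, 6065953 to 6066245) with a signal of 682, and ranked 13 in replicate 1 (signal 433) and 13 in replicate 3 (signal 257). The next, near Chro, which encodes the chromatin protein Chromator, and Ssl1, a TFIIH subunit gene (3L, 22878738 to 22879047), had a signal of 677 and ranked 11 in replicate 1 (signal 439.8) and 18 in replicate 3 (signal 232). The third lay between mRpS23 and CenG1A (2L, 13835315 to 13835599), a gene of a mitochondrial ribosomal protein and one of an Arf GTPase-activating protein, with a signal of 653 and ranks of 18 (signal 394) and 11 (signal 257). These 3 peaks were thus near the top of both replicates. A peak between CG3437 and CG3552 (3L, 9457649 to 9457940) had a signal of 592 and ranks of 16 (signal 401) and 24 (signal 196). One between Art3, a protein arginine methyltransferase gene, and mRpS10 (3R, 15229379 to 15229695) had a signal of 587 and ranks of 15 (signal 407) and 30 (signal 179.9). One between Tcs5 and CHMP2B, an ESCRT-III subunit gene (3L, 5139360 to 5139659), had a signal of 567 and ranks of 17 (signal 396) and 33 (signal 172). Each of these last 3 ranked higher in replicate 1 than in replicate 3.

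The other members among the first 100 of both replicates lay at CG8372 and CG8360 (signal 488, ranks 25 and 41), Pdrg1 and Pal1 (445, ranks 29 and 77), CG11309 and CG7632 (442, ranks 44 and 32), CG5757 and CG5098 (409.7, ranks 39 and 87), and Pex11ab and CG8320 (398, ranks 46 and 68). Pal1 encodes an amidating enzyme of neuropeptides and Pex11ab a peroxisomal membrane protein. The 12th strongest member, at CG7601 and CIA30, a complex I assembly gene, had a signal of 369 and ranked 50 in replicate 1, just outside the first 100 in replicate 3. In all, 11 members were in the first 100 of both replicates and 19 in the first 100 of the optimal set.

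Members stood differently in the replicates. Of the 378, 341 (90.2%, 86.8 to 93.0) overlapped one of the top 2546 peaks of replicate 1 and 238 (63.0%, 57.9 to 67.8) one of the top 2546 of replicate 3. For one-directional promoter peaks the shares were 83.3% and 75.1%. The difference, members minus one-directional, was 6.95 points in replicate 1 (2.71 to 10.8) and −12.1 points in replicate 3 (−17.9 to −6.43). Both tops held 212 members, the top of replicate 1 alone 129, the top of replicate 3 alone 26, and neither 11. The rank was better in replicate 1 for 276 members (73.0%), against 56.8% of one-directional promoter peaks. In the stronger 50% of the optimal set the difference in replicate 1 was −1.21 points (−5.06 to 1.45) and that in replicate 3 −5.48 points. With starts within 250 bp in place of 500 bp, the difference in replicate 3 was −1.11 points (−7.90 to 5.35). The cause was not tested. The GC content, a property that can shift recovery between libraries, was 35.4% ± 5.81 (SD, n = 129 windows) in members at the top of replicate 1 alone. It was 36.7% ± 7.83 (SD, n = 26 windows) in those at the top of replicate 3 alone and 35.1% ± 5.71 (SD, n = 212 windows) in those at the top of both.

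**Figure D3:**
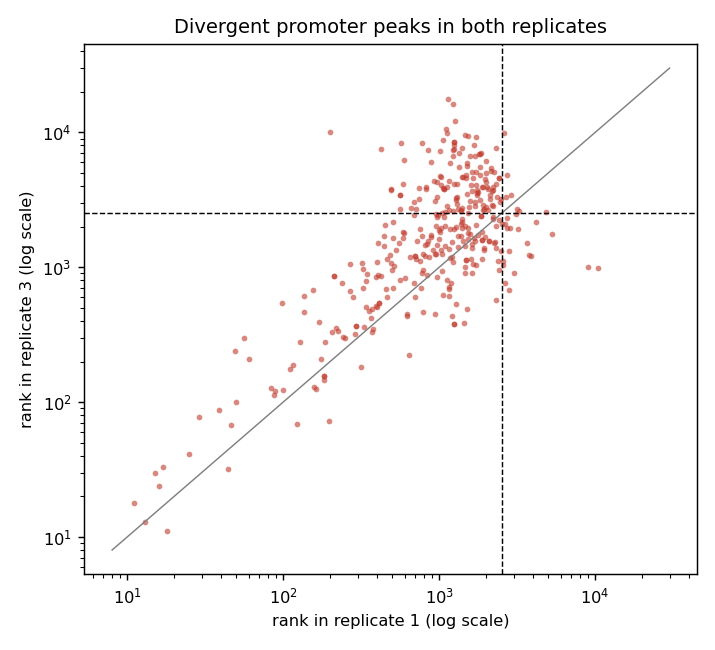
Rank of the overlapping peak in replicate 1 (x) and in replicate 3 (y), both on log scales, for members found in both lists. The dashed lines stand at rank 2546, the solid line marks equal ranks, and 129 members lie in the top of replicate 1 alone against 26 in the top of replicate 3 alone.

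The 3 largest differences of rank in each direction were at members with signals of 62.0 to 69.2 in the optimal set. The peak at CG8414 and Rho1, the gene of a small GTPase that acts on the actin cytoskeleton, had a signal of 68.0 and ranked 10499 in replicate 1 (signal 16.5) and 991 in replicate 3 (signal 45.3). The peaks at Klc, which encodes the kinesin light chain, and CG10984 (ranks 9017 and 999) and at Syx5, a Golgi syntaxin gene, and CG5861 (5320 and 1759) were also better in replicate 3. In the other direction stood CG10467 and loj (1143 in replicate 1 and 17603 in replicate 3), CNBP and CG9849 (1231 and 16368), and La, an RNA-binding protein gene, and RtGEF (1271 and 12117). A stronger member at GCS2beta and CG5131, singled out after its values were seen, had a signal of 152, stood in the top 2546 of replicate 1 (signal 138, above the 118 of the member at Rtel1 and IntS6, which ranked 279 there) and ranked 10134 in replicate 3 (signal 13.5).

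Of the members, 14 overlapped no peak of 1 replicate's list of 30000. Missing from replicate 1 were 11, at Gmd and CG3792, Ipk2 and cold, Dus2 and Fbxl4, Tsp3A and Seipin, CG4199 and Rtca, Gk1 and CG13876, drk and mars, Su(z)12 and Pfdn6, mTor and Vha68-1, ebi and AP-2alpha, and Usp5 and BtbVII. Missing from replicate 3 were 3, at CG5746 and CG6454, CG14610 and CG2656, and nanos and CG11779. Of the 747 one-directional promoter peaks, 8 overlapped no peak of replicate 1 and 2 none of replicate 3, and of all 2546 peaks 26 and 6. The strongest such member, at Gmd and CG3792, had a signal of 145 in the optimal set and ranked 570 in replicate 3.

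Most members, 355, lay near 2 genes, and 23 near 3 or more. The member near the most genes (3R, 21365198 to 21365573, signal 174) counts 10 annotated genes of the pre-mod(mdg4) locus, whose transcripts are joined by trans-splicing, so they are parts of 1 locus rather than 10 independent genes. The next strongest were at HemK2, Snapin and Tnpo-SR (signal 161), at PIG-M, NC2alpha and 3 further CG genes (156), at Mtch, CG34140 and Mkp (134), and at CG9356, CG8135 and BBIP1 (131). At the limit of the rule, the farther start of a member was 499 bp away at Acbp1 and Piezo (signal 85.8), 498 bp at E(bx) and mthl14 (65.2) and 487 bp at Spase22-23 and mask (76.6). Just outside were CG14968 and ZnT63C (signal 202), lin-52 and CG15771 at 503 bp (100) and Nepl19 and Nepl20 at 523 bp (82.6).

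Genes of cytoplasmic ribosomal proteins, which build the ribosome of the cytosol, were often at divergent promoters with a peak. Of all genes in a divergent pair, 15.0% were in a pair with a peak. Of the 58 genes of this list in a pair, 21 were (36.2%, 24.0 to 49.9), 1 of them RpLP0-like, counted by its name. The list was drawn by name and takes every symbol that begins with sta, so it can hold genes of other proteins. Of its 40 genes in no pair, 11 had a summit at a start (27.5%), against 5.88% of all genes in no pair. For the list as drawn, a share above that of all genes was thus found outside divergent pairs too. How many of the 11 encode ribosomal proteins was not checked. The strongest in a pair were RpL32 with CG7943 (signal 242, ranks 183 and 157) and RpL7 with Ripalpha (227, ranks 186 and 277). Next were RpS27 with Nup37, a nuclear pore gene (209, ranks 207 and 331), and RpL14 with Nelf-E (179.7, ranks 290 and 321). Nelf-E encodes a subunit of the negative elongation factor. RpL13 shared its promoter peak with Dref, the gene of the factor that binds the DRE (signal 98.5, ranks 964 and 1469). RpL28 shared one with eIF1, a translation initiation factor gene (110.2, ranks 1039 and 931), and RpL34a had 2 members with Trmt61, a tRNA methyltransferase gene (121 and 84.9), which overlapped the same peak in each replicate.

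The further cytoplasmic ribosomal protein genes in a pair with a peak included RpL3, RpL4, RpL13A, RpL18, RpL19, RpL34b, RpL41, RpLP0, RpLP1, RpS16, RpS20 and RpS25, with signals from 67.8 at RpL3 to 145 at RpLP0. For genes of the mitochondrial ribosome the count was 13 of 58 (22.4%, 12.5 to 35.3), among them mRpS23, mRpS10 and mRpL23 (signal 327, ranks 56 and 300). The other 10 were mRpL2, mRpL18, mRpL20, mRpL24, mRpL32, mRpL34, mRpL51, mRpL53, mRpS2 and mRpS6, with signals from 65.1 to 119.6. Of the 15 mitochondrial ribosomal protein genes in no pair, 0 had a summit at a start, a number too small to set apart from the 5.88% of all genes in no pair.

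For oxidative phosphorylation, whose subunits make up the respiratory chain and the ATP synthase, the count was 10 of 44 (22.7%, 11.5 to 37.8). The strongest was ND-ASHI with Fum1, a fumarase gene (signal 166, ranks 639 and 224), followed by ND-MWFE with TppII (120.2, ranks 491 and 3710). The others, ND-24, ND-42, ND-51, ND-SGDH, COX5A, COX6B, COX7B and ATPsynE, had signals from 63.6 to 93.9. In the list of replicate 3 alone the share was 6.82%. The interval of this list and that of the mitochondrial ribosome both include the 15.0% of all genes in a pair.

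The other lists were near that share or held few genes. The proteasome had 4 of 26 (Rpn3, Rpn5, Rpt5 and Prosalpha7), aminoacyl-tRNA synthetases 5 of 23 (SerRS, GluProRS, AsnRS, IleRS and ArgRS-m), nucleoporins 3 of 19 (Nup37, Nup98-96 and Nup160), and translation factors 4 of 26 (eIF1, eIF3h, eIF4EHP and eEF1alpha1). TFIID and Mediator subunits had 5 of 31 (MED7, MED16, MED17, MED27 and MED30), of which MED30 with Rev1 was the strongest (signal 217, ranks 170 and 395). The list of Rab genes, drawn by name, had 2 of 17, Rab8 and Rab3GAP1, the second of which encodes a regulator of a Rab and not a Rab. Low shares were found at histone genes, 1 of 87 (1.15%, 0.0291 to 6.24), His2Av with ball, in a list mostly of repeated gene copies. The share was also low, 0 of 39 (up to 9.03%), in the chemoreceptor list, which was drawn by name and takes in odorant-binding protein genes. Cuticle genes had 0 of 7.

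**Figure D4:**
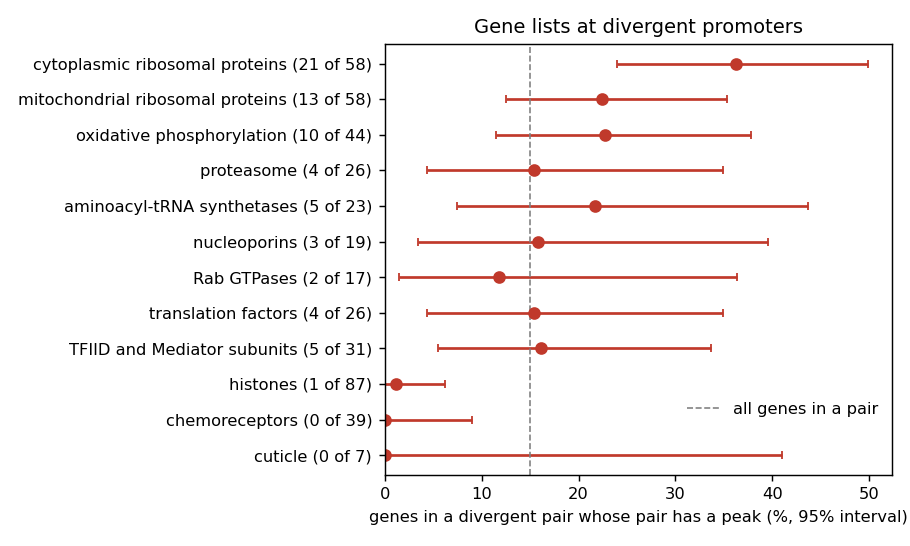
Share of the genes of each list in a divergent pair whose pair has a peak (%, exact 95% intervals), with the number of such genes of those in a pair. The dashed line is the 15.0% of all genes in a pair. The interval of cytoplasmic ribosomal proteins (24.0 to 49.9) lies above it while those of histones and chemoreceptors lie below. Lists were drawn by name, so that of cytoplasmic ribosomal proteins can hold other genes and that of chemoreceptors takes in odorant-binding protein genes.

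Divergent pairs on the X chromosome carried a peak less often than those on the autosomes. A peak was found at 32 of 410 pairs on X (7.80%, 5.40 to 10.8) and at 384 of 2310 pairs on the autosomes (16.6%, 15.1 to 18.2), a difference of −8.82 points (−11.5 to −5.48). On the large autosomal arms the share was 17.0% on 2L, 14.1% on 2R, 16.3% on 3L and 18.9% on 3R, and 0 of 11 pairs on arm 4 had one. In the top 2546 peaks of replicate 1 the shares were 7.32% on X and 18.0% on the autosomes, and in those of replicate 3 they were 6.10% and 12.2%. Among genes in no pair the shares on X and on the autosomes were 6.35% (5.13 to 7.75) and 5.80% (5.27 to 6.35), with intervals that overlapped. Males carry a single X, so pooled larvae hold less X than autosomal DNA, and its part in the result was not tested.

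Motifs were compared in windows of 100 bp either side of the summits and of the midpoints of the pairs. The DRE stood in 10.6% of member windows and in 4.15% of one-directional promoter windows, a difference of 6.43 points (3.24 to 10.1), and in 6.45% of all windows centred on protein-coding starts. At the midpoints of pairs with and without a peak it stood in 9.13% and 8.33%, a difference of 0.801 points (−1.89 to 4.13). The DRE was thus more frequent at members than at other promoter peaks, but it did not differ beyond counting error between divergent pairs with and without a peak. Within 150 bp of a start, the difference from one-directional summits was 3.90 points (−0.596 to 8.42). The strongest members with a DRE were Shc with Atat (signal 322, ranks 60 and 210), fws with Lamtor3 (203, ranks 249 and 299), Rtel1 with IntS6, a helicase gene and an Integrator subunit gene (172, ranks 279 and 597), or, the gene of an adaptor complex subunit for pigment granules, with CG34213 (125, ranks 653 and 1197), and RpL34a with Trmt61.

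Ohler motif 7 stood in 17.5% of member windows, in 4.82% of one-directional windows and in 6.80% of start windows. The difference from one-directional windows was 12.6 points (8.72 to 17.0), and 11.2 points (6.12 to 16.3) for summits within 150 bp of a start. At the midpoints of pairs it stood in 11.8% with a peak and 6.34% without, a difference of 5.44 points (2.49 to 9.02). The BEAF-32 core stood in 45.0% of member windows, 31.2% of one-directional windows and 37.1% of start windows, and at pair midpoints in 47.8% with and 39.4% without a peak, a difference of 8.47 points (3.30 to 13.7). Its difference between members and one-directional windows was 13.8 points, and 8.12 points (0.657 to 15.5) within 150 bp of a start. For these motifs the pairs with a peak thus differed from those without beyond counting error, if pairs are counted as independent. Some pairs share starts, and 21 of the 416 pairs with a peak hold a pre-mod(mdg4) gene. The E-box CAGCTG stood in 17.7% of member windows, 10.2% of one-directional windows and 13.4% of start windows, a difference of 7.55 points (3.30 to 12.2) from one-directional windows. Within 150 bp of a start that difference was 4.32 points (−1.33 to 9.94), and between pair midpoints with and without a peak it was 3.43 points (−0.0390 to 7.44).

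The GAGA element (GAGAG), bound by the GAGA factor, went the other way. It stood in 14.0% of member windows, 32.7% of one-directional windows and 25% of start windows, a difference of −18.6 points (−23.3 to −13.6) from one-directional windows. At pair midpoints with and without a peak it stood in 16.3% and 14.6%, so the low share was found at divergent pairs with or without a peak. The M1BP core was rare at members, 9 windows or 2.38%, and stood in 5.68% of start windows. It was less frequent at the midpoints of pairs with a peak (3.12%) than without (5.60%), a difference of −2.47 points (−4.12 to −0.158). Pairs that share starts count separately in this interval too, and distance between starts was not matched. The strongest members with an M1BP core were RpL7 with Ripalpha, RpLP0 with CG7130 (signal 145, ranks 424 and 866), CG3032 with CG4593 (ranks 709 and 2715), CG10214 with CG10375 (100.3, ranks 743 and 3192), and PIG-C and Dpm2, genes of glycolipid anchor and dolichol phosphate mannose synthesis, with CG12016 (93.7, ranks 1169 and 1914).

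The Mef2 site, given by name, stood in 17.7% of member windows, 10.4% of one-directional windows and 5.97% of start windows. Its difference from one-directional windows was 7.28 points (3.02 to 11.9). At pair midpoints, however, it stood in 15.9% with and 16.2% without a peak. The TATA box letters (TATAAA) stood in 39.2% of member windows and 31.6% of one-directional windows, and at pair midpoints in 36.8% and 39.5%. Both are made mainly of A and T, and the windows differed in GC content, which was 35.3% ± 5.97 (SD, n = 378 windows) in members, 37.9% ± 7.41 (SD, n = 747 windows) in one-directional peaks and 42.3% ± 7.79 (SD, n = 19252 windows) at starts. The part of base composition in these shares was not tested. At pair midpoints it was 34.5% with and 34.3% without a peak. The differences between pair midpoints with and without a peak included 0 for Ohler motif 6, the E-box CACGTG, the GATA site (AGATAA), the AP-1 site (TGANTCA) and the CArG box, the site of the serum response factor, which stood in 0.794% of member windows.

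**Figure D5:**
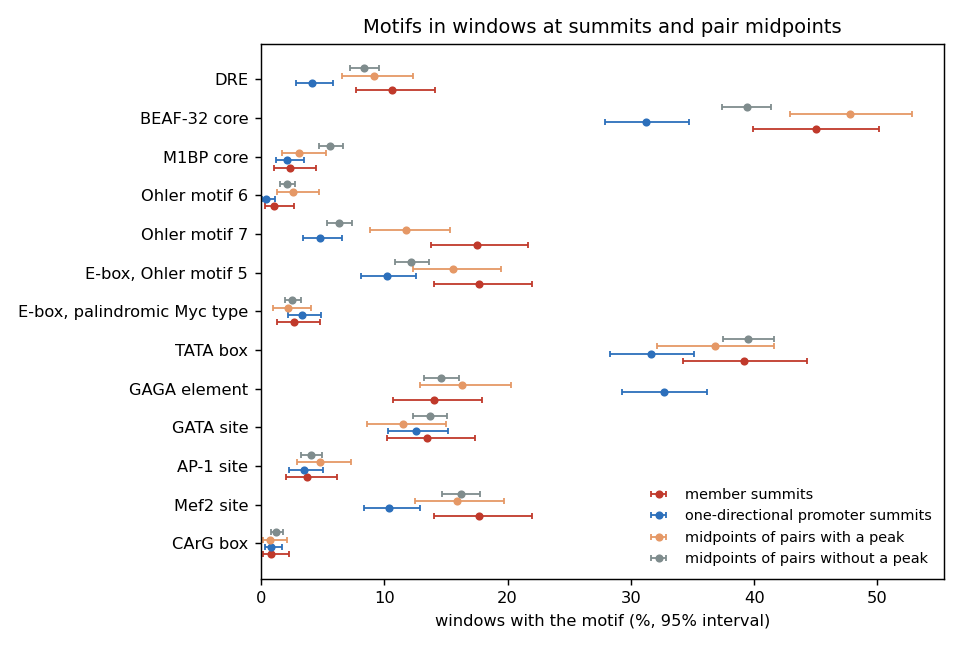
Share of windows of 100 bp either side that hold each of 13 motifs (%, exact 95% intervals), at member summits, one-directional promoter summits, and the midpoints of divergent pairs with and without a peak. Ohler motif 7 is higher at members (17.5%) than at one-directional summits (4.82%), and the GAGA element lower (14.0% and 32.7%).

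Pairs without a peak in the optimal set were looked up in the longer lists of each replicate. Of the 2304, 885 (38.4%) had a summit in the whole list of replicate 1, 1059 (46.0%) in that of replicate 3, 624 (27.1%) in both and 984 (42.7%) in neither. Among the top 2546 peaks, 74 had a summit in replicate 1 and 39 in replicate 3, and 1 in both. That pair was CG4743 and Idh3g, a gene of an isocitrate dehydrogenase subunit, with ranks of 1263 and 1124. The next best in both were Tom7, a gene of the mitochondrial import receptor, with CG8229 and with CG33199 (ranks 1307 and 2660), and mRpL21 with rept, a gene of a chromatin remodelling ATPase (2596 and 2900). Pairs with a peak had a summit in both whole lists in 95.2% of cases. The absence of a peak in these lists does not show that the protein is absent, since the depth of the libraries is not known from peak lists.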

How the data were processed

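ChIP-seq peak lists of 2 biological replicates of 1 group were used. Per the deposited notes, peaks and background regions were called on each replicate and on both together, in build dm6, and an irreproducible discovery rate (IDR) step kept the optimal set. Which aligner and peak caller were used is not given in the sources used here. The peak signal and the −log10 q value are the authors' values as deposited. The signal was used to rank peaks within a list of 2546 or 30000 peaks, and the −log10 q was not used in a test. Depth is not known from peak lists.

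Summits were set against protein-coding transcript starts of Ensembl BDGP6 (release 115), and windows were read from the RefSeq sequence of Release 6. A peak overlapped a replicate peak by at least 1 bp, and the best rank was kept. Scripts used Python 3.11.15, numpy 2.4.6, pandas 2.3.3, scipy 1.17.1, networkx 3.6.1 and matplotlib 3.10.9 and were tested on simulated data. No p-value was computed. The members, motifs and gene lists were chosen with earlier results of these data known. Shares within 150 bp of a start and on X were added after seeing the data. Peaks were named by rule: the 12 strongest members, those in the first 100 of both replicates, the 3 largest rank gaps each way and all without overlap, the narrowest and widest pairs, those at the limit, list genes, up to 5 with a DRE or an M1BP core or with 3 or more genes, and the 3 best pairs without a peak. Pairs that share a gene or a start are not independent. A named item withheld from the text is not reported here.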

Additional observations from a re-analysis of the deposited data

How the results depend on the processing

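No paired analysis was possible because the 2 replicates form 1 group. Over 26 results and 12 alternatives, 157 values stayed within the main interval or within 1.5 times the main count, 40 moved and 1 reversed. With starts within 250 bp, 4.57% of genes in no pair had a peak and 62.0% of members were in both tops. The replicate 3 difference was then −1.11 points. Pairs were at most 500 bp apart in this setting, which shortens distances by the rule itself. Their medians were 224 bp with and 247 bp without a peak. Of summits, 100% lay between starts over 200 and up to 500 bp apart, which the 250 bp limit largely fixes in advance. With 1000 bp, 18.8% of pairs, 21.0% of genes in a pair and 7.67% of genes in none had a peak, the median distance with a peak was 257 bp, and 82.0% of those summits lay between starts. In the stronger 50% of peaks there were 182 members, 7.79% of pairs, 9.16% of genes in a pair and 3.16% in none had a peak (6.00 points), 86.8% of members were in both tops, the differences were −1.21 points in replicate 1 (reversed) and −5.48 in replicate 3, and 7.14% held a DRE. The shares of pairs and genes fall there since fewer peaks enter, and the cause of the other changes was not tested. With the most upstream start of each gene alone, 16.0% and 4.77% of genes had a peak. In windows of 50 bp either side, the DRE stood in 6.88%, Ohler motif 7 in 6.08% (3.94 points) and the GAGA element in 6.61% (−10.8 points) of members. Leaving out 1 replicate, with as many top peaks of the other alone, gave shares with a peak of 11.2% to 16.4% of pairs, 14.1% to 19.3% of genes in a pair and 6.10% to 6.66% in none (7.43 to 13.2 points), and GAGA elements in 12.4% to 18.0% of members (−25.5 to −15.0 points). Ranks in the other replicate have no value in such a list. The RefSeq starts, head to head pairs alone, an overlap of at least 50%, and leaving out histone or pre-mod(mdg4) pairs (the last chosen after seeing the data) moved no result. Peak lists give no depth, which limits what the absence of a peak at a pair shows.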
